A study of Mus musculus with 9 samples.

Results

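The 9 genes described here move or break down monoamines and related small solutes: the plasma membrane carriers Slc6a4, Slc6a12, Slc6a13, Slc6a6, Slc6a8 and Slc6a9, the vesicular carriers Slc18a1 and Slc18a2, and the enzyme Maoa. They are 9 of the 14860 genes read from the arrays of this series, each by 1 transcript cluster, the probes that cover 1 gene. They were brought together because 3 of them, Slc6a4, Slc6a12 and Slc18a1, were higher in mouse myeloid precursors (MPs) given RANKL, the cytokine that drives osteoclast formation. These 3 were thus chosen by their signals with RANKL against CSF-1 alone, which are given as a description with no test. The other 6 were joined by function and were tested.

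Carriers of the SLC6 family couple the uptake of serotonin, GABA, glycine, betaine, taurine or creatine to the inward flow of sodium, while the SLC18 carriers load monoamines into acidic vesicles in exchange for protons. Monoamine oxidase A, made by Maoa, oxidises serotonin and noradrenaline on the outer mitochondrial membrane. Serotonin is a known signal in bone and its transporter has been described in osteoclasts in culture, while betaine and taurine are organic osmolytes that help cells hold their volume.

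To follow gene expression on the way to the bone-resorbing osteoclast (OC), 9 exon arrays were made from total RNA of C57Black6 MPs. MPs had been expanded from bone marrow with CSF-1, the macrophage growth factor, and formed 3 groups of 3 arrays. These were MPs given CSF-1 and RANKL for 3 days, MPs given CSF-1 and RANKL for 1.5 days, and MPs given CSF-1 alone. How long the MPs given CSF-1 alone were cultured is not in the labels, and an effect of RANKL and one of culture time cannot be told apart in comparisons with them. Nor do the labels tie each array to a culture or animal of its own, and p-values then measure the spread between arrays, which may be technical.

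Signals are log2 values after RMA, the normalization that sets the probe signals of all arrays to one distribution before it summarises them. The median signal of an array lay between 5.02 and 5.22. The highest was that of the array numbered 3 at 3 days, and the others reached at most 5.09. Osteoclast markers (8 of 8 measured) averaged 7.95, 8.94 and 9.01 on the arrays of 3 days of RANKL, 5.90, 7.93 and 7.97 at 1.5 days, and 4.93, 4.95 and 4.89 with CSF-1 alone. The array numbered 1 was thus the lowest of both RANKL groups, by a wide margin at 1.5 days. These averages hide unlike genes. At 3 days and then at 1.5 days Mmp9 differed from CSF-1 alone by 7.24 and 5.01 log2 units. Calcr differed by 1.23 and 0.11, and Itgb3 by 0.41 and -0.29. At a limma adjusted p under 0.05, 1 of the 8 (Mmp9) passed at 3 days and 0 at 1.5 days, beside 0.397% and 0.417% of all genes. Macrophage markers (6 of 6 measured) averaged between 10.69 and 11.19 on all 9 arrays. Their average was lower on every array of 1.5 days than on any CSF-1 array, while 3 days lay on both sides of CSF-1 alone. At 1.5 days 2 of the 6 were lower without overlap, as for 6.05% of all genes. These were Fcgr1, by -1.06 log2 units, and Cd68, by -0.16 (limma adjusted p = 0.1675 and 0.607). At either time 0 of the 6 were called. Arrays numbered 1 were the highest of all 3 groups for 6.05% of genes and the lowest of all 3 for 11.3%. The same shares were 2.81% and 2.09% for arrays numbered 2, and 4.71% and 1.62% for arrays numbered 3. Changes of the 9 genes from CSF-1 alone are therefore also given without the arrays numbered 1.

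Slc6a12 and Slc6a13 lie next to each other on chromosome 6 with 0 annotated genes between them. The sequences before the first annotated start of each are shown because the first gene was higher with RANKL and the second was not called, together with that of Slc6a4, which was higher too. They are the 250 bases upstream in RefSeq (GRCm38.p6, plus strand, chr11:76998347-76998596 for Slc6a4, chr6:121342324-121342573 for Slc6a12 and chr6:121300038-121300287 for Slc6a13). Capitals mark matches to the motifs searched, on either strand.
Slc6a4: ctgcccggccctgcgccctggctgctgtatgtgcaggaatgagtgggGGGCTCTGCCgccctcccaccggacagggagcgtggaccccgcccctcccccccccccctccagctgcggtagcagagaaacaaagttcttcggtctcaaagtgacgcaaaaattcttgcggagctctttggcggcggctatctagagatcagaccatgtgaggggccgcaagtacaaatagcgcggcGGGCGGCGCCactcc
Slc6a12: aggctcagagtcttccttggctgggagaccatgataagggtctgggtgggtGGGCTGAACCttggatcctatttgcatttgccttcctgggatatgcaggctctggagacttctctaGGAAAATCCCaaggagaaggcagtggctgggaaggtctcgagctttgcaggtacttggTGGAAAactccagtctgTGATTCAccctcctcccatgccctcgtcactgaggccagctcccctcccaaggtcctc
Slc6a13: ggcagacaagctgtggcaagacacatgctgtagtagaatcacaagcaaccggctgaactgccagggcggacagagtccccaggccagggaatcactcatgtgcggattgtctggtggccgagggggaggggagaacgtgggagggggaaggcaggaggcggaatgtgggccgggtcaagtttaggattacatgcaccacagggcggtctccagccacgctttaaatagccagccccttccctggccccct

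The search covered 7 short motifs of factors active in OCs or their precursors and of the basal promoter, on both strands of 300-base windows that also hold 50 bases past the start. Of the 9 genes, 6 were matched to such windows, some to several, and Slc6a6, Slc6a8 and Slc18a1 were not. The kB letters searched, GGG and CC spaced by any 5 bases, are looser than the sites of NF-kB factors. The Slc6a4 window held these letters with the first base at -203, at -15 and at 31 past the start. The Slc6a12 window held the kB letters at -199, at -133 and at 20 past the start. It also held the TGGAAA core shared by NFAT factors and the tonicity factor NFAT5 at -75, and the AP-1 motif (TGANTCA) at -58. The Slc6a13 window shown held none of the 7.

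The kB letters are common in promoters. They were present in 50.8% of the 32851 RefSeq windows of that length, TGGAAA in 21.4% and the AP-1 motif in 7.81%. The other motifs searched were the cyclic AMP response element TGACGTCA, in 1.79% of windows, the PU.1 motif GAGGAAGT, in 3.2%, the MITF E-box CACGTG, in 7.15%, and the basal promoter box TATAAA, in 13.6%. Of these only the cyclic AMP response element matched a member, at -4 in the window of Slc18a2. The windows of Slc6a12 and Slc6a13 that begin at other annotated starts differed from those shown. Windows 4 and 5 of Slc6a12 held the kB letters, and window 3 of Slc6a13 held the kB letters at -77 overlapping TGGAAA at -72. Maoa held the kB letters several times and TGGAAA at -131, and Slc6a9 held none. A match is a description of the letters and not of a bound factor.

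Against CSF-1 alone, the 3 carriers chosen for it were higher on every RANKL array than on any CSF-1 array, at both times. Groups that do not overlap in that direction were found for 6.59% of all genes at 3 days and 8.63% at 1.5 days, and since these values chose the genes, nothing is read from that count. Slc6a4 was highest at 1.5 days, Slc18a1 at 3 days, and Slc6a12 stood at nearly the same mean at both times. Since the RNA is of whole cultures, more cells that carry a transcript and more of it per cell cannot be told apart. The plot by array shows the 3 courses.

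**Figure D1:**
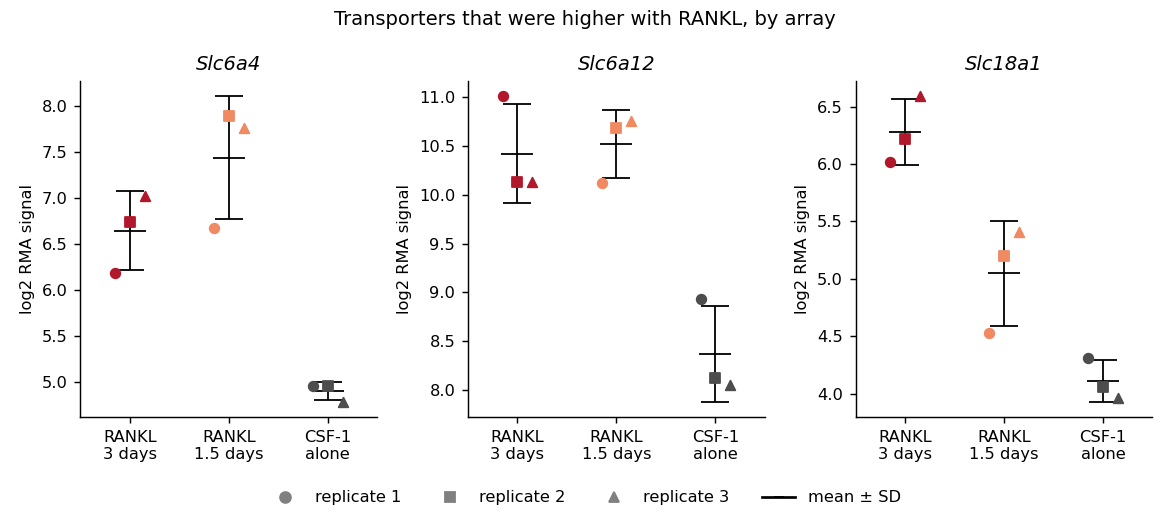
Log2 RMA signal of Slc6a4, Slc6a12 and Slc18a1 on each of the 9 arrays (one symbol per replicate number), by group, with the mean and SD of 3 arrays as bars; each vertical axis has its own range. Every RANKL array lay above every CSF-1 array in each panel, and only Slc18a1 separated 3 days from 1.5 days.

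Slc6a4 (transcript cluster 6782554, chromosome 11), the transporter that clears serotonin from outside the cell, read 6.18, 6.74 and 7.02 at 3 days of RANKL, 6.67, 7.89 and 7.76 at 1.5 days, and 4.95, 4.95 and 4.78 with CSF-1 alone. The CSF-1 arrays lay close together and below the median signal of the arrays, and the array numbered 1 was the lowest of each RANKL group. The mean was 6.65 ± 0.43 at 3 days and 7.44 ± 0.67 at 1.5 days, against 4.89 ± 0.10 with CSF-1 alone (SD, n = 3 arrays each). The log2 difference from CSF-1 alone was 1.75 at 3 days and 2.55 at 1.5 days (SE 0.33). By size it ranked 34 from the highest among 14860 genes at 3 days and 7 at 1.5 days.

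Between the times, Slc6a4 was lower at 3 days than at 1.5 days by a mean log2 difference of -0.79, and the groups overlapped through the low array of 1.5 days. Without the arrays numbered 1 the difference was -0.95, and the differences from CSF-1 alone were 2.02 at 3 days and 2.96 at 1.5 days. That array of 1.5 days also had the lowest osteoclast marker average of its group, 5.90, and how far the 2 are related was not tested. The CSF-1 signals of Slc6a4 and Slc18a1 lay below the array medians and were not tested against background, so that their log2 differences are differences of signal and give no fold of transcript.

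Slc18a1 (transcript cluster 6983097, chromosome 8), the vesicular monoamine carrier known from neuroendocrine cells, read 6.02, 6.22 and 6.59 at 3 days, 4.53, 5.20 and 5.41 at 1.5 days, and 4.31, 4.06 and 3.96 with CSF-1 alone. The 3 groups did not overlap, and stood in the order 3 days, 1.5 days, CSF-1 alone. The means were 6.28 ± 0.29 at 3 days, 5.05 ± 0.46 at 1.5 days and 4.11 ± 0.18 with CSF-1 alone (SD, n = 3 arrays each). The log2 difference from CSF-1 alone was 2.17 at 3 days and 0.94 at 1.5 days (SE 0.24), ranking 22 and 93 from the highest.

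Slc18a1 was the only one of the 9 genes whose arrays at 3 days all lay above those at 1.5 days, by a mean log2 difference of 1.23, rank 11 from the highest of 14860. Groups not overlapping in that direction made up 3.42% of all genes. Without the arrays numbered 1 this difference was 1.10, and the differences from CSF-1 alone were 2.40 at 3 days and 1.30 at 1.5 days. At 1.5 days its array numbered 1 lay only 0.22 above the CSF-1 array numbered 1, the highest of that group.

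The other vesicular carrier, Slc18a2 (transcript cluster 6870785, chromosome 19), which serves monoamine neurons, mast cells and platelets, was dim, with like values in the 3 groups. It read 2.96, 2.96 and 2.83 at 3 days, 2.99, 2.97 and 2.96 at 1.5 days, and 2.96 on all 3 arrays of CSF-1 alone. These values lay below the lower quartile of every array, so that a level above background cannot be claimed for any group. The log2 change was -0.04 at 3 days (95% interval -0.17 to 0.08, limma adjusted p = 0.821) and 0.01 at 1.5 days (-0.11 to 0.14, adjusted p = 0.995).

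Maoa (transcript cluster 7010183, chromosome X) read 5.62, 4.99 and 5.30 at 3 days, 5.74, 5.30 and 5.11 at 1.5 days, and 5.52, 5.20 and 5.16 with CSF-1 alone. The groups overlapped throughout, and the array numbered 1 was the highest of each. Its change was 0.01 log2 units at 3 days (95% interval -0.47 to 0.49, limma adjusted p = 0.995) and 0.09 at 1.5 days (-0.39 to 0.57, adjusted p = 0.994). These intervals were the widest of the 6 tested genes.

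Among the carriers of osmolytes, Slc6a12 (transcript cluster 6949593, chromosome 6), which takes up betaine and GABA, read 11.01, 10.13 and 10.13 at 3 days, 10.12, 10.68 and 10.76 at 1.5 days, and 8.93, 8.12 and 8.05 with CSF-1 alone. It lay above the median of every array and separated RANKL from CSF-1 alone by more than 1 log2 unit. The mean was 10.42 ± 0.51 at 3 days and 10.52 ± 0.35 at 1.5 days, against 8.37 ± 0.49 with CSF-1 alone (SD, n = 3 arrays each). The signal was 4.16 times that of CSF-1 alone at 3 days and 4.45 times at 1.5 days, log2 differences of 2.06 and 2.15 (SE 0.33), which ranked 26 and 16 from the highest.

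The array numbered 1 was the highest for Slc6a12 at 3 days and with CSF-1 alone but the lowest at 1.5 days. The difference between the RANKL times depended on it. With all arrays 3 days was lower than 1.5 days by a mean of only -0.10, and without the arrays numbered 1 by -0.59, with differences from CSF-1 alone of 2.05 at 3 days and 2.64 at 1.5 days. With the 1.5-day or 3-day arrays left out one at a time the difference ran from -0.39 to 0.05, so no order of the times can be read for Slc6a12.

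Slc6a13 (transcript cluster 6949591, chromosome 6), the adjacent gene, takes up GABA, betaine and taurine. It read 4.58, 4.60 and 4.59 at 3 days, 4.57, 4.58 and 4.60 at 1.5 days, and 4.58, 4.45 and 4.57 with CSF-1 alone. Only the CSF-1 array numbered 2 departed from the other 8. Against CSF-1 alone it differed by 0.06 log2 units at 3 days (95% interval -0.06 to 0.18, limma adjusted p = 0.751) and 0.05 at 1.5 days (-0.07 to 0.17, adjusted p = 0.925).

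Slc6a6 (transcript cluster 6948015, chromosome 6), the taurine transporter, read 12.28, 11.84 and 11.92 at 3 days, 12.04, 11.84 and 11.85 at 1.5 days, and 12.09, 11.84 and 11.84 with CSF-1 alone. As for Maoa, the array numbered 1 was the highest of each group, and across the 9 arrays the 2 genes varied together (Pearson r = 0.82, as a description of arrays that share these groups). Its mean differed from CSF-1 alone by 0.09 log2 units at 3 days (95% interval -0.21 to 0.39, limma adjusted p = 0.855) and -0.01 at 1.5 days (-0.31 to 0.29, adjusted p = 1.0).

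Of the carriers of building blocks, Slc6a8 (transcript cluster 7011944, chromosome X), which imports creatine, read 9.32, 9.26 and 9.24 at 3 days, 9.11, 9.10 and 9.28 at 1.5 days, and 9.39, 9.10 and 9.41 with CSF-1 alone. One CSF-1 array was as low as the lowest of 1.5 days. The log2 change was -0.03 at 3 days (95% interval -0.25 to 0.19, limma adjusted p = 0.953) and -0.14 at 1.5 days (-0.36 to 0.08, adjusted p = 0.828).

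Slc6a9 (transcript cluster 6916663, chromosome 4), the glycine transporter of glia and red cell precursors, had the lowest adjusted p of the 6 against CSF-1 alone. It read 6.74, 6.82 and 6.88 at 3 days, 6.75, 6.84 and 6.80 at 1.5 days, and 6.75, 6.50 and 6.43 with CSF-1 alone. The CSF-1 array numbered 1 lay within the RANKL values and the other 2 below all of them. With RANKL the log2 change was 0.25 at 3 days (95% interval 0.05 to 0.46, limma adjusted p = 0.363) and 0.24 at 1.5 days (0.03 to 0.44, adjusted p = 0.465). Neither passed the adjusted threshold. With only the arrays numbered 2 and 3, the change was 0.39 at 3 days (adjusted p = 0.0555) and 0.36 at 1.5 days (adjusted p = 0.0570), again short of it.

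**Figure D2:**
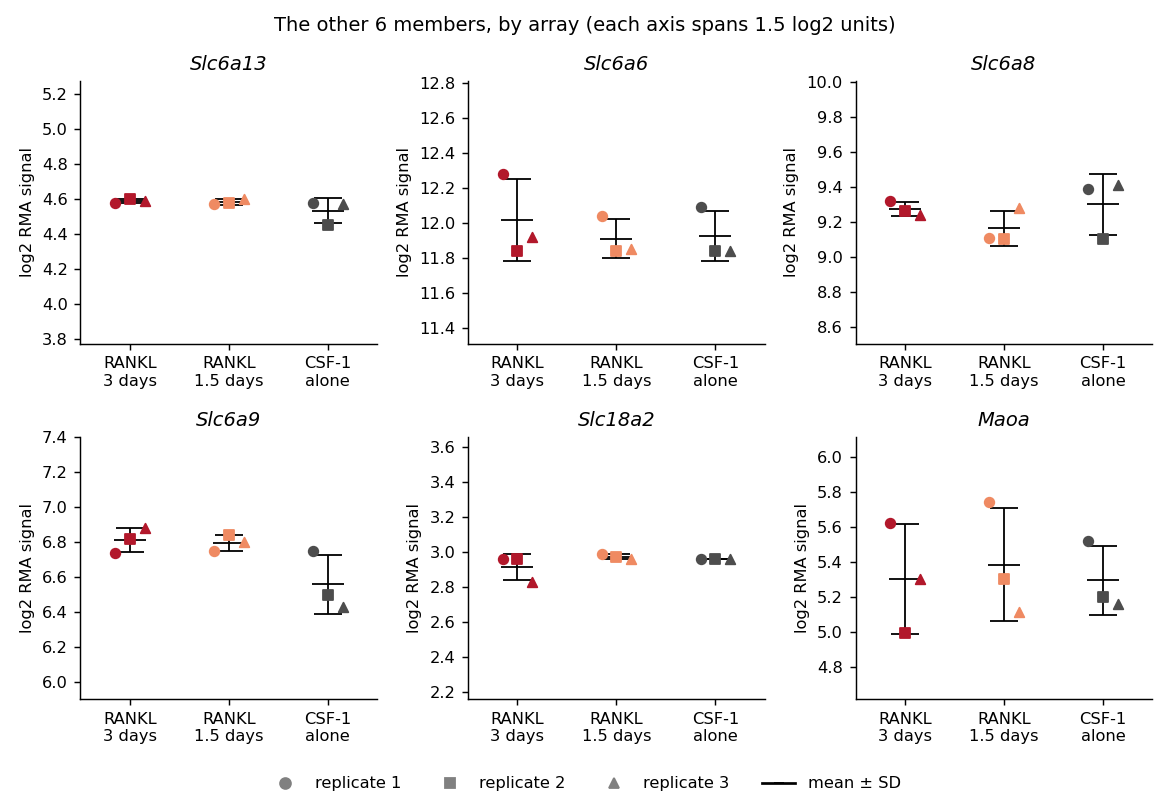
Log2 RMA signal of the 6 tested genes on each of the 9 arrays, by group, with the mean and SD of 3 arrays as bars; each axis spans the same number of log2 units at its own level. The groups overlap in every panel, and Slc6a9 has 2 of its 3 CSF-1 arrays below all RANKL arrays.

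Taken over all genes, limma called 59 of 14860 (0.397%) at 3 days against CSF-1 alone, 62 (0.417%) at 1.5 days against CSF-1 alone, and 0 (0%) at 3 days against 1.5 days, where 771 (5.19%) had an unadjusted p under 0.05. Against CSF-1 alone that was so for 1564 genes (10.5%) at 3 days and 1312 (8.83%) at 1.5 days. Of the 6 tested genes 0 were called in any of these comparisons. At an unadjusted p under 0.05 the count was 1, Slc6a9, against CSF-1 alone at either time, and no alternative test gave a call. Between the RANKL times the 6 log2 differences lay between -0.08 for Maoa and 0.11 for Slc6a8, with adjusted p from 0.836 to 0.989. Their median log2 change from CSF-1 alone was 0.03 at both times, beside -0.0067 over all genes at 3 days and 0.0067 at 1.5 days. Without the arrays numbered 1, the log2 change at 3 days and then at 1.5 days was -0.005 and -0.065 for Slc6a8, 0.085 and 0.08 for Slc6a13, 0.04 and 0.005 for Slc6a6, -0.065 and 0.005 for Slc18a2, and -0.035 and 0.025 for Maoa. With Slc6a9, given above, 0 of the 6 were then called. A p that misses the threshold does not show that a gene was unchanged. The intervals above bound the changes of signal these arrays leave room for, which for dim genes need not be changes of transcript.

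**Figure D3:**
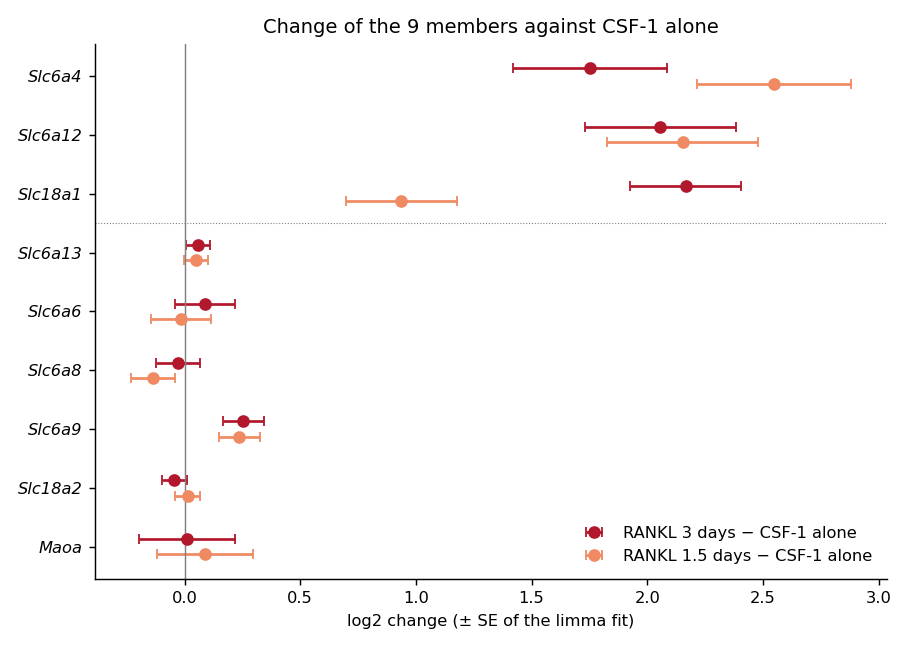
Log2 change of each of the 9 genes from CSF-1 alone, at 3 days (dark) and 1.5 days (light) of RANKL, with the SE of the limma fit. The 3 genes above the dotted line were chosen because they were higher with RANKL and lie between 0.94 and 2.55, while the 6 below it lie between -0.14 and 0.25.

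Over the 9 arrays the 3 carriers chosen for their level with RANKL were related unequally. Pearson r was 0.86 between Slc6a4 and Slc6a12, 0.75 between Slc6a12 and Slc18a1, and 0.64 between Slc6a4 and Slc18a1, each over arrays that share these groups. Slc6a9, which was not chosen that way, had r of 0.79, 0.83 and 0.76 with Slc6a4, Slc6a12 and Slc18a1.

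The genes most like each carrier were then taken as the 5 with the highest r over the 9 arrays, among the 1860 genes with a range of at least 1 log2 unit. For Slc6a4 they were Pde2a, a cyclic nucleotide phosphodiesterase (r = 0.99), the Myc-family factor Mycl (0.98), the growth factor receptor Fgfr1 (0.97), the lymphatic growth factor Vegfc (0.97) and Birc3, an inhibitor of apoptosis in NF-kB signalling (0.96). All 5 had, like Slc6a4, a higher mean at 1.5 days than at 3 days, with arrays that overlapped between the times. Pde2a averaged 7.54 at 3 days and 8.17 at 1.5 days, against 5.90 with CSF-1 alone.

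For Slc6a12 they were the UDP-sugar receptor P2ry14 (r = 0.97), the zinc finger protein Zfp462 (0.97), the lectin receptor Clec4a1 (0.97), glutamine synthetase, Glul (0.96), and Naaa, a lysosomal amidase of fatty acid amides (0.96). Their log2 differences from CSF-1 alone were smaller than the 2.06 and 2.15 of Slc6a12 and of like size at both times. That of Zfp462 was 1.94 at 3 days and 1.64 at 1.5 days, and that of Glul 0.64 and 0.58.

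For Slc18a1 they were the metallothionein Mt3 (r = 0.98), the unconventional myosin Myo1d (0.97), the steroid-metabolising reductase Akr1c18 (0.97), the osteoclast-associated receptor Oscar (0.97), which is also among the osteoclast markers used above, and the transporter Slc45a3 (0.97). All 5 were higher at 3 days than at 1.5 days. Oscar averaged 7.43 at 3 days and 5.41 at 1.5 days, against 3.72 with CSF-1 alone, and its array numbered 1 was low at 1.5 days as that of Slc18a1 was. The likeness is over 9 arrays in 3 groups, so that a course shared with the carrier follows from the choice of these genes. It says nothing of a shared function or control.

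**Figure D4:**
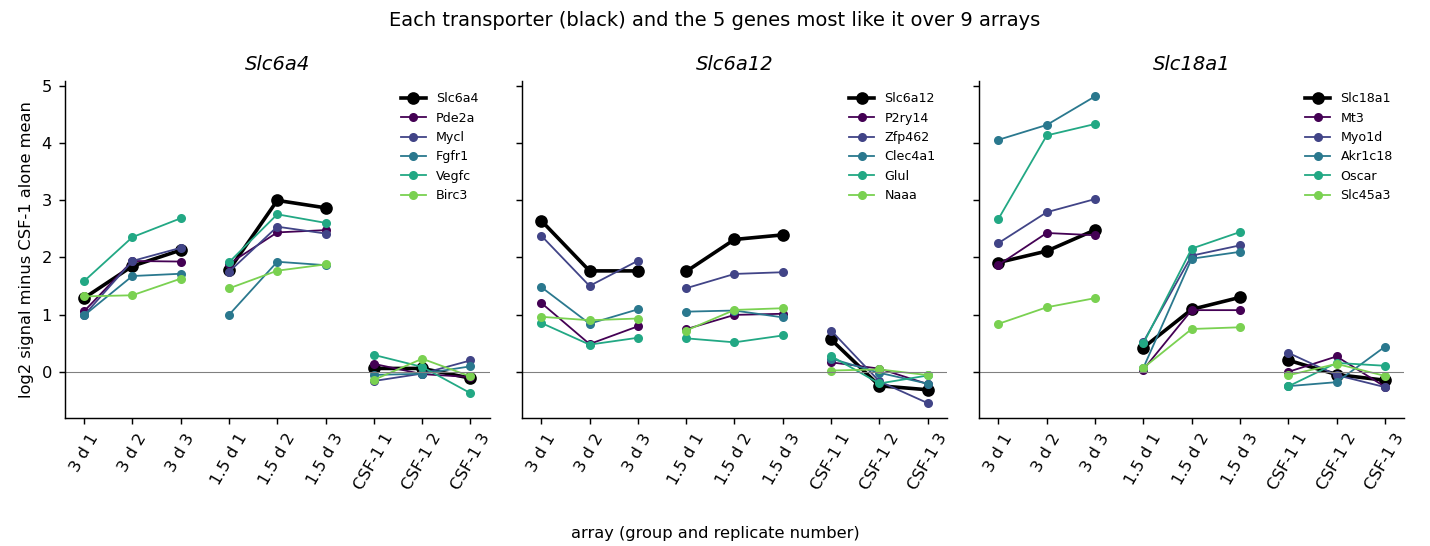
Log2 signal of Slc6a4, Slc6a12 and Slc18a1 (black) and the 5 genes most like each, as the difference from the gene's own CSF-1 mean, on each of the 9 arrays (group and replicate number). Lines only join the arrays of a group and imply no order. Slc6a4 and its like genes have a higher mean at 1.5 days with arrays that overlap between the times, and Slc18a1 and its like genes stand higher at 3 days. The like genes were picked on these arrays, so that a shared course follows from the choice.

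The other genes of these pathways were read from 10 lists with 82 of 104 genes measured, and 0 of the 82 were called in any comparison. At an unadjusted p under 0.05 there were 12 (14.6%, beside 10.5% of all genes) at 3 days and 7 (8.54%, beside 8.83%) at 1.5 days against CSF-1 alone, and 2 (2.44%, beside 5.19%) at 3 days against 1.5 days. The list medians against CSF-1 alone lay between -0.10 and 0.06, except for osmolyte handling, of which 3 of 5 genes were measured and the median log2 change was 0.31 at 3 days and 0.23 at 1.5 days.

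Monoamines need enzymes to make them, and 18 of 20 genes of their synthesis and breakdown were measured. Tph1 and Tph2, which start serotonin synthesis, averaged 2.53 and 2.29 at 3 days, 2.54 and 2.40 at 1.5 days, and 2.57 and 2.30 with CSF-1 alone, below the lower quartile of all 9 arrays. Maob, the other monoamine oxidase, was as dim, at 2.06, 2.06 and 2.04. The largest log2 differences of that list were those of Hnmt, which methylates histamine, 0.42 at 3 days and 0.31 at 1.5 days (limma adjusted p = 0.565 and 0.829), of the aldehyde dehydrogenase Aldh2, -0.30 and -0.32 (0.268 and 0.260), and of the cofactor enzyme Pts, 0.26 at both times (0.365 and 0.426).

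Of the other monoamine carriers 2 of 6 were measured, the acetylcholine carrier Slc18a3 and the organic cation carrier Slc22a2, and both lay below the lower quartile on all 9 arrays. All 14 serotonin receptors were measured. Htr2b, a receptor coupled to phospholipase C, read 4.58, 5.54 and 5.66 at 3 days, 5.01, 5.46 and 5.30 at 1.5 days, and 5.52, 6.69 and 6.95 with CSF-1 alone. Its lowest CSF-1 array was the one numbered 1, as was the lowest RANKL array of either time. The log2 change was -1.13 at both times (limma adjusted p = 0.382 at 3 days and 0.451 at 1.5 days), in size the largest of all 82 listed genes after that of Slc5a3, and not past the threshold. Htr2a differed by -0.67 at 3 days and -0.46 at 1.5 days (adjusted p = 0.518 and 0.820) and Htr6 by 0.03 and 0.48 (0.988 and 0.767). Of dopamine and adrenergic receptors 6 of 14 were measured, with the largest log2 differences in Drd1 (-0.28 at 3 days), Drd4 (-0.25 at 3 days) and Adra2c (0.13 at 1.5 days).

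**Figure D5:**
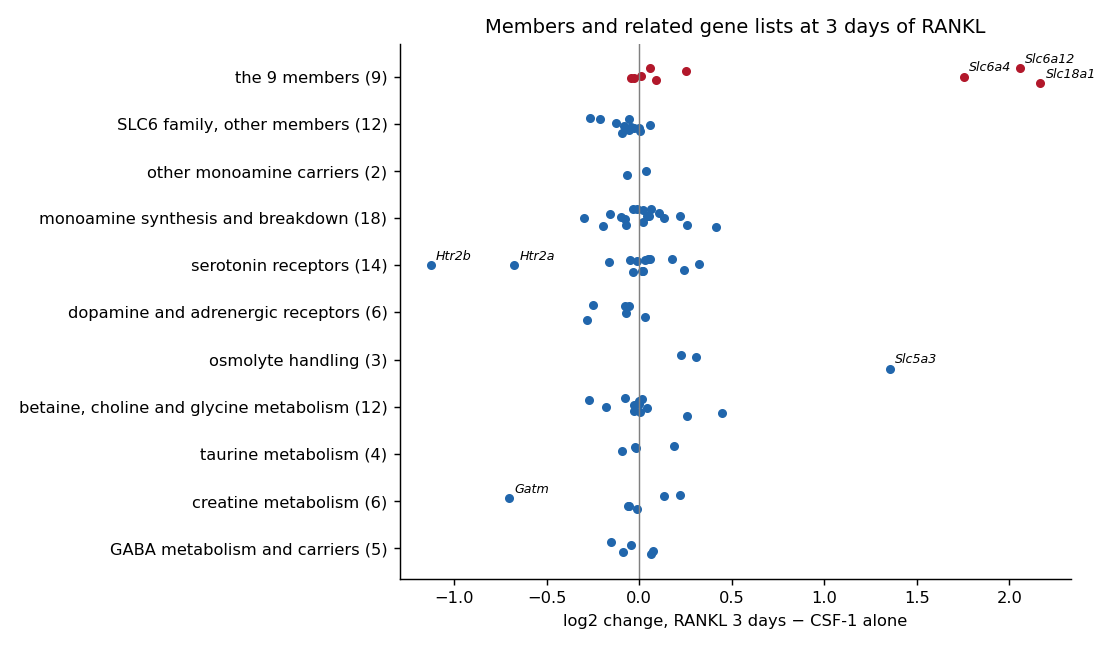
Log2 change from CSF-1 alone at 3 days of RANKL for the 9 genes (red) and for the measured genes of 10 related lists (blue; number measured in brackets), one point per gene. Slc6a4, Slc6a12 and Slc18a1 were chosen because they were higher with RANKL, so nothing is read from their place beyond the listed genes. Of the listed genes Slc5a3 is the farthest right and Htr2b the farthest left, and 0 passed the test.

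The osmolyte list held Slc5a3, the myo-inositol transporter, which like Slc6a12 is known as a target of NFAT5 in cells under osmotic stress. Slc5a3 read 11.20, 9.55 and 9.77 at 3 days, 9.73, 10.11 and 10.03 at 1.5 days, and 9.68, 8.39 and 8.39 with CSF-1 alone. At 1.5 days all arrays lay above those of CSF-1 alone, as for 8.63% of all genes. At 3 days the highest CSF-1 array, numbered 1, exceeded the lowest RANKL array. The log2 change was 1.35 at 3 days and 1.14 at 1.5 days (limma adjusted p = 0.379 and 0.566). Its r was 0.90 with Slc6a12, 0.64 with Slc18a1 and 0.57 with Slc6a4, over 9 arrays that share these groups. The 5 genes most like Slc6a12 had r of 0.96 to 0.97 with it. The arrays numbered 1 of Slc5a3 were, as for Slc6a12, the highest at 3 days and with CSF-1 alone and the lowest at 1.5 days. A part of NFAT5 in these values was not tested. Nfat5 itself differed by 0.31 and 0.23 (0.571 and 0.830), and the amino acid carrier Slc38a2 by 0.23 and 0.12 (0.429 and 0.846).

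Of betaine, choline and glycine metabolism 12 of 16 genes were measured. Slc44a1, which imports the betaine precursor choline, averaged 9.04 at 3 days and 9.11 at 1.5 days, against 8.59 with CSF-1 alone. Its RANKL groups lay higher without overlap at both times, as for 6.59% of all genes at 3 days and 8.63% at 1.5 days. Its log2 change of 0.45 at 3 days and 0.51 at 1.5 days had the lowest adjusted p of all listed genes (limma, 0.184 and 0.156) and did not pass. Gcsh of the glycine cleavage system differed by 0.26 and 0.73 at signals below the lower quartile (0.892 and 0.797), and the serine hydroxymethyltransferase Shmt2 by 0.04 and 0.37 (0.971 and 0.750).

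All 6 genes of creatine metabolism were measured, and Gatm, which begins creatine synthesis, averaged 7.85 at 3 days and 8.01 at 1.5 days, against 8.56 with CSF-1 alone. Its RANKL groups lay lower without overlap at both times, as for 4.91% of all genes at 3 days and 6.05% at 1.5 days. The log2 change of Gatm, -0.70 and -0.55, did not pass (limma adjusted p = 0.319 and 0.536). The creatine kinase Ckb differed by 0.13 at 3 days and -0.35 at 1.5 days, and Ckmt1 by 0.22 and 0.06. From CSF-1 alone the 4 genes of taurine metabolism differed by at most 0.19 in size (Csad, at 3 days) and the 5 of GABA metabolism by at most 0.15 (Gad1, -0.15 at 3 days). Csad and Gad1 were the 2 listed genes with an unadjusted p under 0.05 at 3 days against 1.5 days, with log2 differences of 0.32 and -0.20 (limma adjusted p = 0.823 for both). Of the SLC6 family, 12 of 14 further genes were measured and 5 lay below the lower quartile on all arrays. The largest log2 differences were in the GABA carrier Slc6a11 (-0.26 at 3 days, limma adjusted p = 0.399), Slc6a20a (0.26 at 1.5 days, 0.677) and the dopamine carrier Slc6a3 (-0.21 at 3 days, 0.268).

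Monoamine carriers are also made by other cells that marrow cultures can hold, and their markers were read beside the transporters. Markers of mast cells and basophils (8 of 10 measured) averaged 2.49 to 2.68 at 3 days, 2.51 to 2.64 at 1.5 days, and 2.56 to 2.64 with CSF-1 alone. Neuroendocrine markers (7 of 7) averaged 3.48 to 3.74, 3.48 to 3.67, and 3.57 to 3.60 in the same order. For both lists the averages of the groups overlapped, and 2 of the 7 neuroendocrine markers lay below the lower quartile on all 9 arrays. So did 4 of the 8 mast cell and basophil markers, Cpa3, Mrgprb2 and the IgE receptor genes Fcer1a and Ms4a2. Mrgprb2 was higher without overlap, 2.23 at 3 days and 2.27 at 1.5 days against 2.05 (limma adjusted p = 0.515 and 0.473). Such groups made up 6.59% and 8.63% of all genes. Fcer1a was lower without overlap at 1.5 days, as for 6.05% of all genes, at 1.73 against 2.17 (limma adjusted p = 0.608). So was the neuroendocrine marker Syp, at 5.39 against 5.89 (limma adjusted p = 0.4985). Pcsk1 of the same list differed by 0.34 log2 units at 3 days with overlap (limma adjusted p = 0.582).

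Markers of megakaryocytes and platelets, which carry Slc6a4, averaged 5.10 to 5.28 at 3 days, 5.09 to 5.55 at 1.5 days, and 5.42 to 5.44 with CSF-1 alone (7 of 10 measured). One array of 1.5 days lay above the CSF-1 range and the other RANKL arrays below it. The median log2 change of the list was -0.07 at 3 days and 0.04 at 1.5 days, and 0 of the 7 were called. The median hides unlike genes. At 3 days and then at 1.5 days Pf4 differed by -1.34 and -1.57 (limma adjusted p = 0.379 and 0.333) and Ppbp by -0.56 and 0.13 (0.222 and 0.942). Gp5 differed by 0.33 and 0.04 (0.627 and 0.844) and Gp9 by -0.06 and 0.41 (0.934 and 0.525). Stromal and lymphoid markers averaged at most 4.60 and 2.82 on any array. Of the 7 marker lists only the osteoclast one stood higher on every RANKL array than on every CSF-1 array, and their part in the values of the 3 carriers was not tested.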

How the data were processed

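MPs were grown for 3 days with CSF-1 (labels and methods differ on its dose) and then seeded in a commercial osteoclast medium. For that step the study's methods instead name the culture medium DMEM with serum, CSF-1 and RANKL. Biotin-labelled RNA was read on Affymetrix mouse exon arrays, 1 per sample. The authors ran Expression Console and RMA (versions not given in the sources used here) and deposited log2 signals of transcript clusters with 2 decimals. RMA equalises the arrays, so a change shared by most genes would not show.

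Of 23332 clusters, 14996 had 1 gene symbol, 1019 several and 7317 none. Symbols were updated through RefSeq (GRCm38.p6, 14941 matched by gene ID), and the cluster with the highest mean was kept for 135 symbols with several, leaving 14860 genes. Limma 3.58.1 (lmFit and eBayes, R 4.3.3) fitted 3 group means to all 9 arrays, with 6 residual and 1.83 prior degrees of freedom. Comparisons were two-sided with Benjamini-Hochberg adjustment over all genes, called under 0.05. The number of arrays limits the precision: with 3 against 3, p = 0.1 is the smallest an exact test allows. The fit was tested on simulated data.

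The members and lists were chosen with earlier results of these data known. Named from each list were called genes, otherwise up to 3 with the largest change from CSF-1 alone at either time. Alternatives were the replicate block, centring, quantile normalization, leaving out the dimmest genes (9905 kept), all clusters, mean clusters, trended robust variance, array weights, an array set term (replicate 1 against the others), the comparison's 6 arrays, each array left out, and the methods' t-test. The fit of replicates 2 and 3 alone was added after seeing the data.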

Additional observations from a re-analysis of the deposited data

How the results depend on the processing

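Of 321 values of the 6 tested genes under the alternatives, 299 kept their direction and their side of the threshold, 22 changed sign and 0 changed the call, and Slc18a2 gave no value when only the 9905 brighter genes were kept. Under settings other than leaving out 1 array, the values that changed sign were as follows. For Maoa at 3 days, whose sign changed under 7 of 18 settings in all, they were -0.01 with centring, -0.0065 with quantile normalization, -0.022 with array weights and -0.035 with replicates 2 and 3 only. For Slc18a2 at 1.5 days the value was -0.017 with centring, and for Slc6a6 at 1.5 days 0.041 with quantile normalization and 0.005 with replicates 2 and 3 only.

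With each array left out, the log2 change at 3 days from CSF-1 alone ran from -0.13 to 0.028 for Slc6a8, from -0.043 to 0.18 for Slc6a6 and from -0.15 to 0.17 for Maoa. At 1.5 days it ran from -0.078 to 0.07 for Slc6a6 and from -0.088 to 0.23 for Maoa. Between 3 days and 1.5 days it ran from -0.03 to 0.19 for Slc6a6, from -0.24 to 0.10 for Maoa and from -0.017 to 0.053 for Slc6a9. Over all alternatives the adjusted p of Slc6a9 ran from 0.0555 to 0.789 at 3 days and from 0.0570 to 0.915 at 1.5 days.

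The described carriers kept their direction against CSF-1 alone throughout: from 1.57 to 2.02 at 3 days and from 2.32 to 2.96 at 1.5 days for Slc6a4, from 1.76 to 2.34 and from 2.00 to 2.64 for Slc6a12, and from 2.01 to 2.40 and from 0.76 to 1.30 for Slc18a1. With replicates 2 and 3 only, Slc6a12 was at 2.64 at 1.5 days and -0.59 between the times, and Slc18a1 at 1.30 at 1.5 days.

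The counts of called genes moved more. At 3 days there were 59 (51 higher, 8 lower), against 97 with the replicate block, 97 with centring (69 higher, 28 lower), 95 over the 9905 brighter genes, 19 over all clusters, 215 with the array set term, 31 with the comparison's 6 arrays, 334 with replicates 2 and 3 only and 0 with the t-test of the methods (964 at an unadjusted p under 0.05). At 1.5 days there were 62, against 95 over the 9905 brighter genes, 15 over all clusters, 607 with array weights, 205 with the array set term, 26 with the comparison's 6 arrays, 474 with replicates 2 and 3 only and 6 with the t-test. Leaving out RANKL array 1, 2 or 3 gave 102, 16 or 4 at 3 days and 139, 3 or 4 at 1.5 days. Leaving out CSF-1 array 1, 2 or 3 gave 31, 4 or 5 at 3 days and 28, 4 or 2 at 1.5 days. Between the RANKL times the count was 0 under every setting. The cause was not tested.

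The deviations of arrays that share a replicate number had r of 0.27 to 0.37 for number 1 and of 0.12 to 0.15 for number 3. For number 2, r was 0.21 between the RANKL times, but 0.0635 at 3 days and 0.0461 at 1.5 days with CSF-1 alone, so not every pair was over 0.1 and the numbers were not taken as pairs. The replicate block gave 97 calls at 3 days, 71 at 1.5 days and 0 between the times, and changed no call of a tested gene.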
